A study of Homo sapiens with 6 samples.

Results

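The spliceosome and hnRNP genes are described here in clones of H9, an established human embryonic stem cell line, that carried different forms of the histone variant H2A.X. Members were the genes whose symbol begins with HNRNP, SRSF, SF3A, SF3B, PRPF or SNRNP, or runs from SNRPA to SNRPG. The rule matched 65 genes of the 14884 with a named row on the array. After 6 pseudogenes were left out (HNRNPA1P10, HNRNPA1P33, HNRNPA3P1, HNRNPKP3, SNRPD2P2 and SRSF3P2), 59 members remained. No measured value entered this choice. The members comprised 7 genes of the Sm core, 5 of the U1 particle, 2 of the U2 particle, 9 of the U4/U6 and U5 particles, 3 of the U11/U12 particle, 2 factors that act in spliceosome activation, 10 SR proteins and 21 hnRNP proteins. No SF3A or SF3B gene had a named row, so these subunits of the U2 particle were not analysed here.

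All clones came from H9 cells transduced with a lentiviral vector in which the EF1α promoter drives the insert and an IRES links it to eGFP. CTRL clones carried eGFP without a histone. In gamma_ON the insert was H2A.X bearing S139E, where glutamate stands in for the phosphorylated serine of γH2A.X, the mark of DNA double-strand breaks. In gamma_OFF the inserted H2A.X bore both T136A and S139A, which removes the phosphorylated residue. Cells positive for GFP and the surface antigen TRA 1-60 had been sorted, seeded singly on mouse embryonic fibroblasts and expanded from colonies with bFGF at 8 ng/ml in medium conditioned by those feeders. The labels describe no loss of the cells' own H2A.X, and an unsubstituted H2A.X vector was not among the groups, so a substitution cannot be told apart from added H2A.X. Total RNA of each sample was hybridised to 1 Affymetrix gene array, and each group had 2 arrays. Nothing in the labels says whether a pair represents different clones or parallel cultures of 1 clone, so the spread behind each p-value may be only technical.

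Introns are removed from pre-mRNA by the spliceosome, which assembles on each intron from small nuclear ribonucleoproteins (snRNPs). U1 recognises the 5′ splice site, U2 binds the branch point, and the U4/U6.U5 tri-snRNP joins before the complex is activated, while a rare class of introns uses U11 and U12 instead. SR proteins bind exonic sequences and mostly promote the use of nearby splice sites, and hnRNP proteins coat nascent transcripts and often oppose them. Genes of both families are abundantly transcribed in growing cells, and many carry promoters of the housekeeping type.

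RefSeq promoter windows of GRCh38.p14, running from 250 bases before to 50 bases after a transcription start, were matched to 53 of the 59 members. For 3 members that the results below turn on, the 250 bases before the start are printed 5′ to 3′ on the plus strand. They are SRSF5, which was lower in gamma_OFF, HNRNPM, which had the smallest p-value of any member in gamma_ON against CTRL, and SRSF3, whose gamma_ON and gamma_OFF arrays lay on opposite sides of CTRL. Capitals mark an ETS-type core (CCGGAAG) in SRSF5 at chr14:69766892-69767141 and a TATA box (TATAAA) in SRSF3 at chr6:36594112-36594361. The HNRNPM stretch, at chr19:8444725-8444974, holds none of the motifs searched.
SRSF5: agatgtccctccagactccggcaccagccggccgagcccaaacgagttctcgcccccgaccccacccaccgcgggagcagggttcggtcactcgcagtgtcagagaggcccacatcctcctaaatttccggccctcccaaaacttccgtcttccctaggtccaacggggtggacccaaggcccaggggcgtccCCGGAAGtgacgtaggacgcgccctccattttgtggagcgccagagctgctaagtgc
HNRNPM: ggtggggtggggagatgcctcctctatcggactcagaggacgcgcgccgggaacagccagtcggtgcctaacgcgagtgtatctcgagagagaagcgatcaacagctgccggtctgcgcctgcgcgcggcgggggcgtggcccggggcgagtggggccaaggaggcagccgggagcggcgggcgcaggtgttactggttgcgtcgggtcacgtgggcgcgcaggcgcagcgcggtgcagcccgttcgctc
SRSF3: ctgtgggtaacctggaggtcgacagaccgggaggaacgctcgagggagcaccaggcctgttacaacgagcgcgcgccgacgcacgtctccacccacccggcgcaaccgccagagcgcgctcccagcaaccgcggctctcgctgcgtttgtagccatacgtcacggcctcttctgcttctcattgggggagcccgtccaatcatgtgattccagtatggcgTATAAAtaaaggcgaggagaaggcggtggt
The ETS-type core, searched on both strands, occurred in the windows of 15 of 53 members (28.3%), against 17.1% of the 10749 array genes and 12.2% of all 27305 genes with such a window. TATAAA, searched on the sense strand, occurred in 4 members, HNRNPAB, HNRNPC, SRSF3 and SRSF7 (7.55%, against 7.67% of array genes and 8.99% of all genes). The BANP motif, a CG-rich palindrome searched on both strands, was present in HNRNPH3 and HNRNPK (3.77%, against 0.698% and 0.505%). The NRF1 and YY1 motifs, also searched on both strands, were in 0 member windows, against 2.2% and 1.62% of array genes. Some genes have several windows and count once if any of them matches. ETS-type cores were found in genes of most particles, among them SNRPG, SNRPB, SNRPD2 and SNRPE of the Sm core, SNRPC, SNRPA1, SNRPB2, SNRNP27, SNRNP200 and PRPF6, but in only 2 of the SR genes, SRSF4 and SRSF5, and 2 of the hnRNP genes, HNRNPF and HNRNPLL. These matches are letters in a window and were not tested as binding sites.

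Levels were deposited as log2 values. 49 of the 59 members lay at or above the median signal of all 14884 genes. Signal spread least on the gamma_OFF arrays (SD across genes 1.70 and 1.64, compared with 1.76 to 1.81 on the rest). In both histone groups most members were lower on replicate 2 than on replicate 1, but by more in gamma_OFF. In gamma_OFF this held for 47 of 59 members, with a median difference of -0.21 (log2), against 0.00 over all genes and -0.06 over the brighter genes, those at or above the median signal. In gamma_ON it held for 48, with a median of -0.08 against -0.04 over all genes and -0.08 over the brighter genes. In CTRL it held for 24, with a median of 0.03 against 0.02 over the brighter genes. The largest difference in gamma_OFF, -0.94, was that of SNRPD1, which encodes an Sm ring protein. The median absolute difference of the members within a replicate pair was 0.06 for CTRL, 0.10 for gamma_ON and 0.24 for gamma_OFF. The main counts, medians and calls that rest on gamma_OFF are therefore also given without its replicate 2.

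The cells were checked against markers of pluripotency and of other cell types. SOX2, a core transcription factor of pluripotent cells, read 11.39 and 11.43 in CTRL, 11.73 and 11.57 in gamma_ON and 11.64 and 11.60 in gamma_OFF. NANOG, another such factor, read 6.26 and 6.70, 6.81 and 6.65, and 6.65 and 7.29 in the same order. POU5F1, the third, read 7.10 and 7.41, 7.88 and 8.05, and 7.59 and 7.64, and rose by 0.71 in gamma_ON (limma adjusted p = 0.0441; it passed under 10 of 18 alternatives). The mean level over 14 measured pluripotency markers ranged from 10.06 to 10.36 over the 6 arrays. Of 14 measured endoderm and hepatic markers, 8 rose and 1 (CXCR4) fell in gamma_ON against CTRL. In gamma_OFF 2 of them rose and 4 fell, and 2 of the 14 pluripotency markers rose, while 1, POU5F1, rose in gamma_ON. Of other lineages, 3 of 7 primitive streak and 2 of 8 trophoblast and amnion markers rose in gamma_ON, where 1 of 10 neuroectoderm markers fell. In gamma_OFF 3 of 10 neuroectoderm, 2 of 8 trophoblast and amnion and 2 of 6 fibroblast markers fell. Over all genes limma called 0.739% higher and 0.806% lower in gamma_ON, and 2.77% higher and 6.08% lower in gamma_OFF. The gamma_OFF marker counts rest on both arrays. Without replicate 2 the median log2 fold change was 0.23 over pluripotency, -0.28 over endoderm and 0.18 over primitive streak markers. It was -0.16 over neuroectoderm, 0.01 over trophoblast and amnion and -0.28 over fibroblast markers. The endoderm list's mean level was 7.61 to 7.89 in CTRL, 9.21 to 9.29 in gamma_ON and 7.53 in both gamma_OFF arrays. The 6 measured fibroblast markers had mean levels of 7.80 to 7.98 in CTRL, 7.90 to 7.95 in gamma_ON and 7.46 to 7.59 in gamma_OFF. The 23 measured genes of G1/S and DNA replication averaged 9.18 to 9.22 in CTRL, 9.56 to 9.69 in gamma_ON and 9.23 to 9.41 in gamma_OFF. The part of these shifts in the values below was not tested. In bulk RNA, fewer cells of a type and less RNA per cell cannot be told apart.

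**Figure D1:**
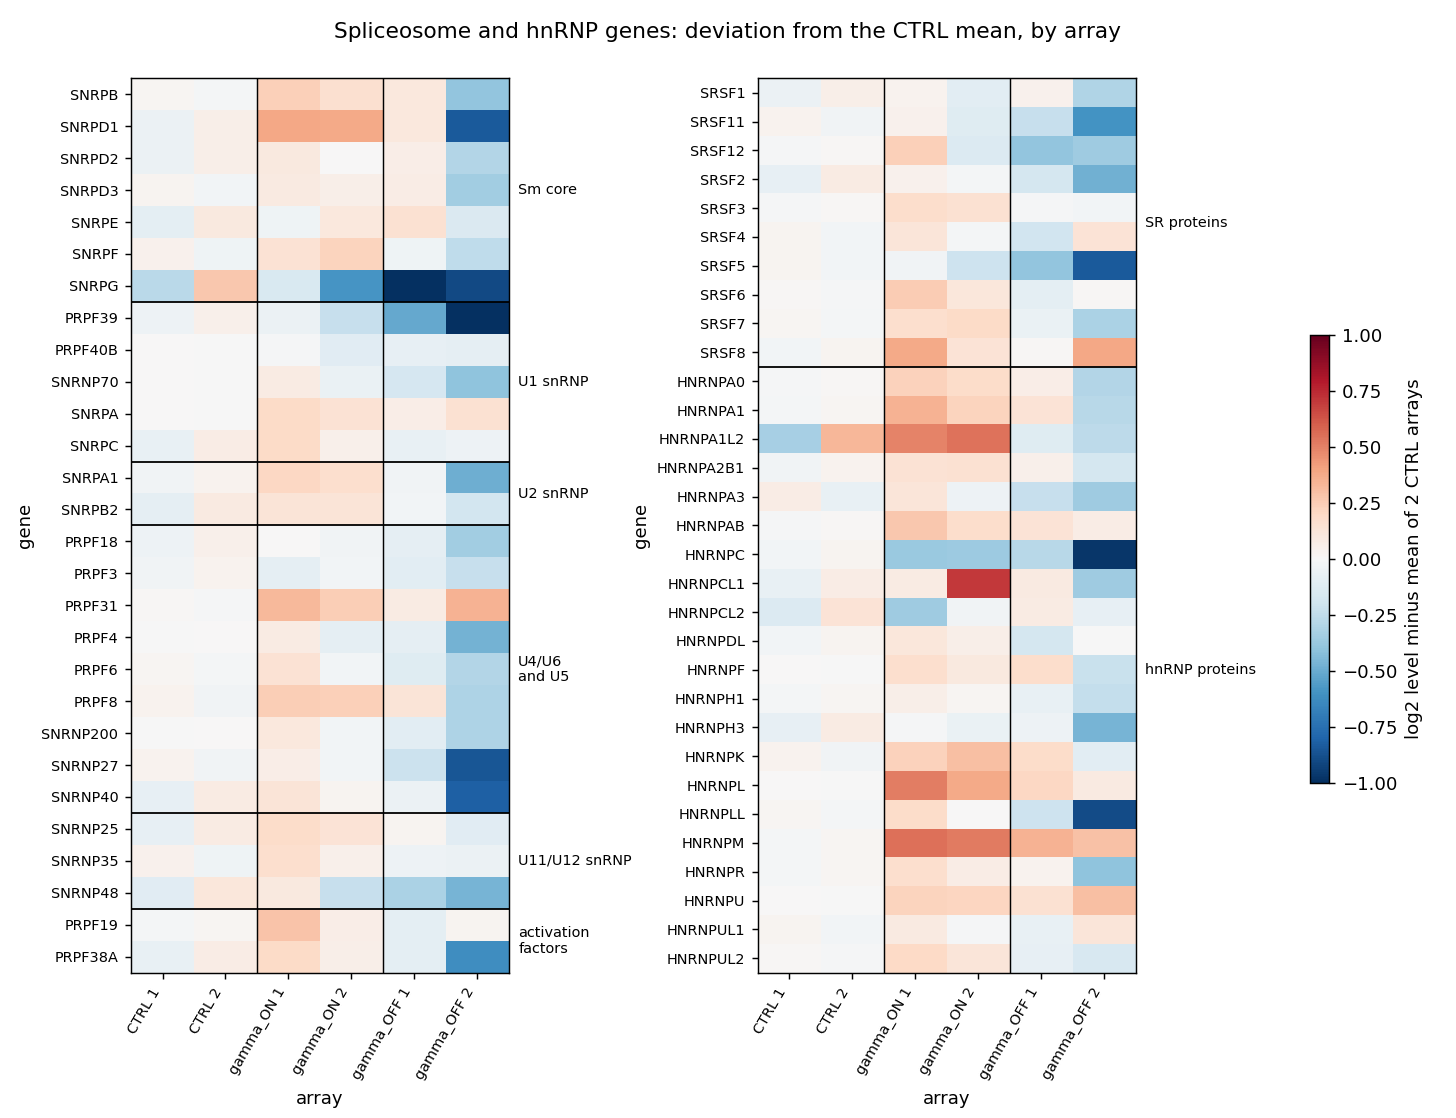
Log2 level of each of the 59 genes (vertical axis, grouped by particle or family) on each of the 6 arrays (horizontal axis), minus the mean of both CTRL arrays; red is higher, blue is lower and the colour scale ends at 1 log2 unit either way, which SNRPG and PRPF39 pass slightly in gamma_OFF. The gamma_ON columns are mostly pale red (median deviations of 0.15 and 0.06), and the column of gamma_OFF replicate 2 is mostly blue (median -0.29), more so than that of gamma_OFF replicate 1 (median -0.06).

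In gamma_ON against CTRL, the spliceosome and hnRNP genes were on the whole slightly higher, and no single one passed the test. The median log2 fold change was 0.11 over the members, against 0.02 over all genes and 0.04 over the brighter genes. It was above 0 for 46 of 59 members, against 54.4% of all genes. Quantile normalization gave a median of 0.06, against 0.00 over all genes, with 38 members above 0 and 21 below. Leaving out gamma_ON replicate 1 gave 0.06 with 37 members above 0 and 22 below. Limma called 0 of 59 members at an adjusted p under 0.05, against 1.55% of all genes tested (0.739% higher and 0.806% lower). At an unadjusted p under 0.05 it reached 3 members (5.08%), all higher, against 14.8% of all genes (8.65% higher and 6.15% lower). Both gamma_ON arrays lay above both CTRL arrays for 31 members and below them for 4, and the groups overlapped for the other 24, so 35 of 59 did not overlap, against 52.4% of all genes (30.0% higher and 22.3% lower). The 95% interval of the fold change lay within 2-fold either way for all 59 members, with a median half-width of 0.31.

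HNRNPM, an hnRNP protein that binds GU-rich RNA, read 11.04 and 11.08 in CTRL, 11.61 and 11.58 in gamma_ON and 11.41 and 11.35 in gamma_OFF. All 4 arrays with a histone vector lay above both controls, and the gamma_ON pair lay highest. Its log2 fold change in gamma_ON was 0.54 (SE 0.11, limma adjusted p = 0.0544). It was 0.32 in gamma_OFF (SE 0.11, adjusted p = 0.0962), and the moderated F test over the 3 groups called it (adjusted p = 0.0443). That test called 3 of 59 members, the others being SNRPG (adjusted p = 0.043) and PRPF39 (adjusted p = 0.0443), against 8.32% of all genes. These calls were lost without gamma_OFF replicate 2, which left 1 array in that group. HNRNPL, which binds CA repeats, read 10.92 and 10.91 in CTRL, 11.42 and 11.29 in gamma_ON and 11.12 and 11.01 in gamma_OFF. Its groups did not overlap either, with a log2 fold change of 0.44 in gamma_ON (SE 0.12, adjusted p = 0.114). With array weights, the adjusted p for gamma_ON against CTRL was 0.0143 for HNRNPM and 0.0352 for HNRNPL. For HNRNPM it ranged from 0.0143 to 0.355 over the alternatives, the highest without gamma_ON replicate 1.

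Other hnRNP genes shared the sign. The family's median in gamma_ON was 0.15, and 18 of its 21 genes were above 0. HNRNPA1, an abundant protein that antagonises SR proteins at splice sites, read 9.89 and 9.92 in CTRL and 10.25 and 10.13 in gamma_ON, a difference of 0.29 (SE 0.15, adjusted p = 0.428). Its close relative HNRNPA2B1 differed by 0.15 (SE 0.12), and HNRNPK, which binds C-rich RNA, by 0.27 (SE 0.13). HNRNPC, which forms the tetramer that packages nascent transcripts and was the lowest of the family, went the other way. It read 10.29 and 10.35 in CTRL and 9.95 and 9.96 in gamma_ON, a difference of -0.37 (SE 0.20, adjusted p = 0.441), with no overlap. HNRNPA1L2, HNRNPCL1 and HNRNPCL2 are near-identical copies of HNRNPA1 or HNRNPC, so their values (0.52, 0.39 and -0.20 in gamma_ON) are uncertain, since the array may not separate them.

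Among the snRNP genes the differences in gamma_ON were small. The Sm core, the ring of proteins that binds each spliceosomal snRNA, had a median of 0.07. SNRPD1 was its highest gene, at 9.92 and 10.05 in CTRL and 10.37 and 10.36 in gamma_ON (0.38, SE 0.25, adjusted p = 0.535), and SNRPG its lowest (-0.37, SE 0.20, adjusted p = 0.437). SNRPB, the Sm protein targeted by lupus autoantibodies, differed by 0.20 (SE 0.16). The U1 genes had a median of 0.01, between SNRPA, which binds U1 stem-loop II, at 0.17 and PRPF39 at -0.15; SNRNP70, which binds the first stem-loop of U1 RNA, stood at 0.01. Both U2 genes were above 0, SNRPA1 at 0.19 and SNRPB2 at 0.13. In the U4/U6 and U5 particles the median was 0.04. PRPF31, a U4 protein mutated in retinitis pigmentosa, was highest at 0.29 and PRPF3 lowest at -0.06, while PRPF8, the U5 scaffold at the catalytic centre, stood at 0.25 (SE 0.15) and the helicase SNRNP200 at 0.04. Of the U11/U12 genes SNRNP25 stood at 0.16 and SNRNP48 at -0.07. PRPF19, a ubiquitin ligase of spliceosome activation, and PRPF38A stood at 0.18 and 0.12. The SR genes had a median of 0.05, from SRSF5 at -0.12 to SRSF8 at 0.26, with SRSF1, SRSF2 and SRSF3 at -0.04, 0.01 and 0.17.

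In gamma_OFF against CTRL, most of these genes were lower, and SNRPG, PRPF39 and SRSF5 fell. Limma called 3 of 59 members (5.08%), all lower, against 8.85% of all genes tested (2.77% higher and 6.08% lower). The share is below the background, and 12 members (1 higher and 11 lower) reached an unadjusted p under 0.05, against 30.4% of all genes (14.1% higher and 16.3% lower). The median log2 fold change was -0.13 over the members, against 0.01 over all genes, -0.10 over the brighter genes and 0.14 over the dimmer ones. It was below 0 for 49 of 59 members, against 48.1% of all genes and 65.1% of the brighter genes; it was above 0 for 10, against 51.9% of all genes. The groups did not overlap for 31 members, 6 higher and 25 lower, against 61.3% of all genes (31.1% higher and 30.2% lower). The 95% interval stayed within 2-fold for 55 of the 59 members. Without gamma_OFF replicate 2 the median was -0.0571, against -0.06 over the brighter genes. It was then below 0 for 36 members (61.0%, against 61.1% of the brighter genes) and above 0 for 23, and 0 members were called, against 2.61% of all genes. The single array left lay under both CTRL arrays for 31 members (52.5%, against 53.1% of the brighter genes) and over both for 19. Without gamma_OFF replicate 1 the median was -0.29, with 11 members above 0 and 48 below.

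SNRPG, the gene of an Sm ring protein, read 5.95 and 6.49 in CTRL, 6.07 and 5.63 in gamma_ON and 5.19 and 5.31 in gamma_OFF. These are low signals, under the array medians over all genes (7.09 to 7.14), so the alternative without dim genes did not include SNRPG. Both gamma_OFF arrays were the lowest, and the CTRL arrays differed by more than 0.5. It fell by 0.97 on the log2 scale (SE 0.20, adjusted p = 0.0249). This call was lost without CTRL replicate 2 (-0.70, adjusted p = 0.153) and without gamma_OFF replicate 2 (-1.03, adjusted p = 0.0811). SNRPG has processed copies elsewhere in the genome, which the array may not separate from it.

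PRPF39, a protein of the U1 particle that helps the choice of 5′ splice sites, read 8.46 and 8.56 in CTRL, 8.46 and 8.28 in gamma_ON and 8.00 and 7.50 in gamma_OFF. The gamma_OFF arrays were again the lowest, replicate 2 by the wider margin. PRPF39 fell by 0.76 (SE 0.17, adjusted p = 0.0302). Without gamma_OFF replicate 2 the difference was -0.51 (adjusted p = 0.0872) and without gamma_OFF replicate 1 it was -1.01 (adjusted p = 0.00733). The call was also lost without either CTRL array (adjusted p = 0.118 and 0.165) or either gamma_ON array (0.0572 each).

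SRSF5, an SR protein that promotes exon inclusion, read 9.30 and 9.24 in CTRL, 9.24 and 9.06 in gamma_ON and 8.88 and 8.43 in gamma_OFF. Both gamma_OFF arrays were the lowest, replicate 2 more so. SRSF5 fell by 0.62 (SE 0.16, adjusted p = 0.046). Without gamma_OFF replicate 2 the difference was -0.39 (adjusted p = 0.137), and leaving out either CTRL array (0.189 and 0.182) or either gamma_ON array (0.0768 each) also ended the call. It passed under 7 of 18 alternatives, PRPF39 under 9 of 18 and SNRPG under 13 of 17.

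**Figure D2:**
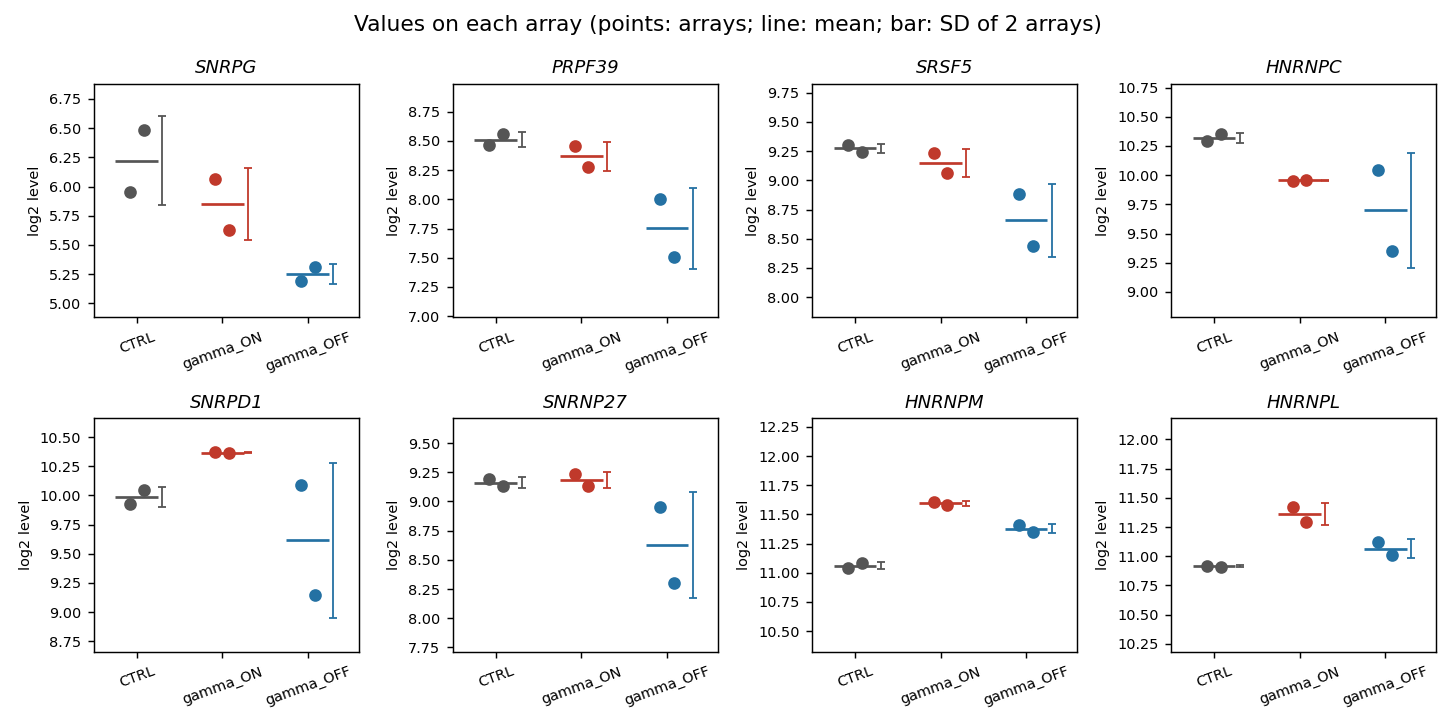
Log2 level (vertical axis) of single genes on each of the 6 arrays, 2 points for each of CTRL, gamma_ON and gamma_OFF, with a line at the group mean and a bar for the SD of 2 arrays. SNRPG, PRPF39 and SRSF5 have both gamma_OFF points under both CTRL points, and HNRNPM has both gamma_ON points (11.61 and 11.58) above the gamma_OFF and CTRL points.

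Further members were low in gamma_OFF without passing. HNRNPC read 10.05 and 9.35 there, both under CTRL, a difference of -0.62 (SE 0.20, adjusted p = 0.0776). HNRNPLL, which controls alternative splicing in lymphocytes, read 7.71 and 7.66 in CTRL and 7.48 and 6.79 in gamma_OFF (-0.55, SE 0.20, adjusted p = 0.106). SNRNP27, a tri-snRNP protein and the lowest of the U4/U6 and U5 group, read 9.19 and 9.13 in CTRL and 8.95 and 8.31 in gamma_OFF (-0.53, SE 0.19, adjusted p = 0.0998). Its dimmer row differed by 0.09, so the rows of SNRNP27 disagree. Both rows of SNRPE gave values at or above 0, 0.00 on the brighter and 0.27 on the other. SNRPE was the highest of the Sm core and SNRPA, at 0.11, of the U1 genes. Of the rest, SNRNP40, a U5 protein, read 8.94 on gamma_OFF replicate 1 and 8.17 on replicate 2, against 8.91 and 9.08 in CTRL, and thus overlapped.

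Several widely studied subunits did not pass the test. PRPF8 differed by -0.09 in gamma_OFF (SE 0.15), SNRNP200 by -0.20 (SE 0.12), SNRNP70 by -0.28 (SE 0.13), SNRPB by -0.15 (SE 0.16) and PRPF19 by -0.03 (SE 0.13). PRPF38A was lower than PRPF19, at -0.36 (SE 0.17). Both U2 genes were below 0, SNRPA1 at -0.26 and SNRPB2 at -0.11, and the U11/U12 genes ran from SNRNP48 at -0.39 to SNRNP25 at -0.04. Of the SR genes, 9 of 10 were below 0. SRSF2, which binds exonic enhancers, stood at -0.33 and its relatives SRSF1 and SRSF3 at -0.13 and -0.02, while SRSF8 was the highest at 0.20. Among the hnRNP genes 15 of 21 were below 0, with HNRNPA1 at -0.07, HNRNPA2B1 at -0.06 and HNRNPK at 0.04. PRPF31 was the highest of its particle in gamma_OFF too, at 0.21 (SE 0.13), and read 9.25 and 9.52 against 9.18 and 9.16 in CTRL.

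The lower values in gamma_OFF went with the signal level of a gene. All genes were split by mean level into 10 bins of equal size. The median log2 fold change in gamma_OFF ran from 0.13 to 0.19 in the 4 dimmest bins and from -0.12 to -0.15 in the 3 brightest. Of the 59 members, 33 lie in the brightest bin and 7 in the next. In gamma_ON the same medians stayed between -0.01 and 0.07. When each array was centred and rescaled to the same SD, the members' median in gamma_OFF became -0.01, against 0.04 over all genes. Of the members, 27 were then above 0 and 32 below. Quantile normalization gave -0.05, against 0.03 over all genes, with 25 members above 0 and 34 below. After rescaling SNRPG still passed (-1.03, adjusted p = 0.0334), PRPF39 (-0.69, adjusted p = 0.0524) and SRSF5 (-0.50, adjusted p = 0.0815) did not, and HNRNPM passed as higher (0.58, adjusted p = 0.027). The split of calls was thus 3 lower and 0 higher as deposited, and 1 lower and 1 higher after rescaling.

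**Figure D3:**
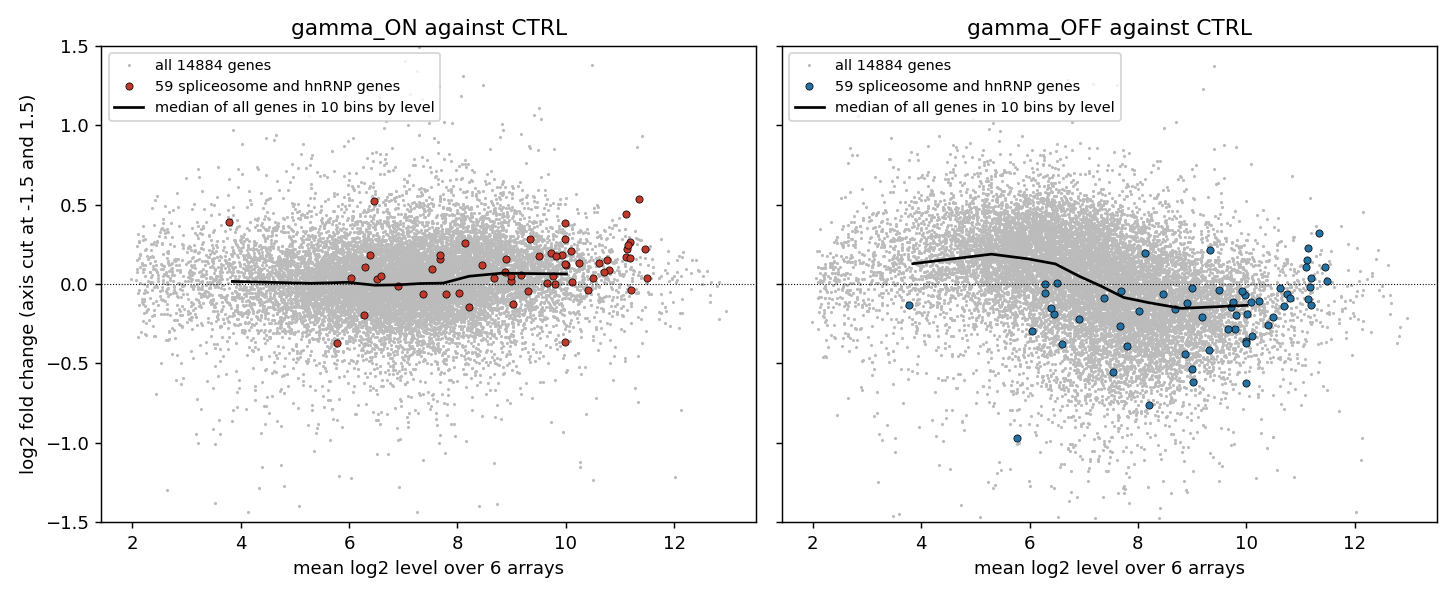
Log2 fold change (vertical axis, cut at 1.5 either way) against mean log2 level over the 6 arrays (horizontal axis), 1 panel for each histone vector against CTRL, with all 14884 genes in grey, the 59 members in colour and a black line through the medians of 10 bins by level. The line slopes from 0.13 in the dimmest bin to -0.13 in the brightest in gamma_OFF against CTRL, and most members sit at its bright end.

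Gamma_ON and gamma_OFF were then compared directly, with the CTRL arrays entering only the estimate of the spread. The comparison sets cells with S139E against cells with both T136A and S139A. If a pair represents 1 clone, histone form and clone cannot be told apart. Of 59 members, 57 were higher in gamma_ON (96.6%, against 52.9% of all genes and 73.6% of the brighter genes). HNRNPCL2 (-0.20) and HNRNPU (-0.00) were the exceptions. The median over the members was 0.24, against 0.02 over all genes and 0.17 over the brighter genes. In the brightest of the 10 bins by level the median over genes was 0.20, and in the next it was 0.25. Limma called 0 of 59 members, against 5.99% of all genes tested (3.98% higher and 2.02% lower), and 22 members reached an unadjusted p under 0.05 (37.3%, against 33.0% of all genes), all higher, against 19.4% higher among all genes. Both gamma_ON arrays lay above both gamma_OFF arrays for 43 members and below them for 0, against 63.3% of all genes without overlap (35.8% higher and 27.6% lower). Leaving out gamma_OFF replicate 2 gave a median of 0.18 (0.04 over all genes and 0.13 over the brighter genes). The log2 fold change was then above 0 for 52 members (88.1%, against 55.8% of all genes and 74.7% of the brighter genes) and below 0 for 7. Both gamma_ON arrays then lay above the single gamma_OFF array for 49 members (83.1%, against 46.8% of all genes and 66.5% of the brighter genes). They lay below it for 5 (8.47%, against 34.6% and 19.4%). Without gamma_OFF replicate 1 the median was 0.36, with 53 members above 0 and 6 below. The 95% interval of the fold change stayed within 2-fold for 53 members.

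The smallest adjusted p-values between gamma_ON and gamma_OFF belonged to PRPF39 (0.62, SE 0.17, adjusted p = 0.0593) and HNRNPA1L2 (0.71, SE 0.19, adjusted p = 0.0595). SNRPD1 had the highest fold change of any member, at 0.75 (SE 0.25, adjusted p = 0.0866). It read 10.37 and 10.36 in gamma_ON but 10.09 and 9.14 in gamma_OFF, so replicate 2 of gamma_OFF carries most of the gap. HNRNPLL differed by 0.64 (SE 0.20), SNRPG by 0.60 (SE 0.20), SNRNP27 by 0.56 (SE 0.19) and SRSF5 by 0.49 (SE 0.16, adjusted p = 0.0819). PRPF38A differed by 0.48, SNRPA1 by 0.45 and SNRNP48 by 0.33. The lowest values of their groups were those of SNRPE (0.03), PRPF40B (0.02), SNRPB2 (0.24), PRPF31 (0.07), SNRNP35 (0.16), PRPF19 (0.21) and SRSF8 (0.06). The dimmer rows of SNRNP27 and SNRPE gave -0.11 and -0.14, so the rows of both genes disagree in sign. PRPF8 differed by 0.34, SNRNP200 by 0.24, SNRNP70 by 0.29, SNRPB by 0.34, HNRNPA1 by 0.35, HNRNPA2B1 by 0.21, HNRNPC by 0.26 and HNRNPK by 0.23. SRSF1, SRSF2 and SRSF3 stood at 0.09, 0.34 and 0.19. Rescaling lowered the median of the members to 0.08, against -0.004 over all genes, with 39 members above 0 and 20 below. Quantile normalization lowered it to 0.10, against -0.01 over all genes, with 44 members above 0 and 15 below.

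Members could be sorted by where both vectors lay against CTRL, which they share. For 6 members both gamma_ON arrays lay above and both gamma_OFF arrays below both CTRL arrays (HNRNPH1, HNRNPUL2, SNRNP35, SNRPF, SRSF3 and SRSF7), 10.2% against 5.94% of all genes, and 0 members showed the mirror image (3.49% of all genes). SRSF7, an SR protein with a zinc knuckle, read 9.84 and 9.80 in CTRL, 9.98 and 10.01 in gamma_ON and 9.75 and 9.50 in gamma_OFF. All 3 groups were separate, with 0.18 (SE 0.12) in gamma_ON and -0.19 (SE 0.12) in gamma_OFF. In SRSF3, which also acts in mRNA export, the CTRL values of 11.12 and 11.14 lay under the gamma_ON values of 11.31 and 11.29 and barely over the gamma_OFF values of 11.12 and 11.10. For 6 members all 4 histone arrays lay above CTRL (HNRNPAB, HNRNPL, HNRNPM, HNRNPU, PRPF31 and SNRPA; 10.2%, against 11.8% of all genes). For 4 members they all lay below it (HNRNPC, PRPF39, PRPF40B and SRSF5; 6.78%, against 12.1%). With the gamma_OFF array of replicate 2 left out, these counts were 9 (15.3%, against 7.76% of all genes), 0, 17 (28.8%, against 17.3%) and 4 (6.78%, against 15.2%), in the order opposite sides, mirror image, all above and all below. HNRNPAB, an A/B-type hnRNP protein, read 11.34 and 11.36 in CTRL, 11.61 and 11.52 in gamma_ON and 11.49 and 11.42 in gamma_OFF, differences of 0.22 and 0.11 (SE 0.11 each).

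**Figure D4:**
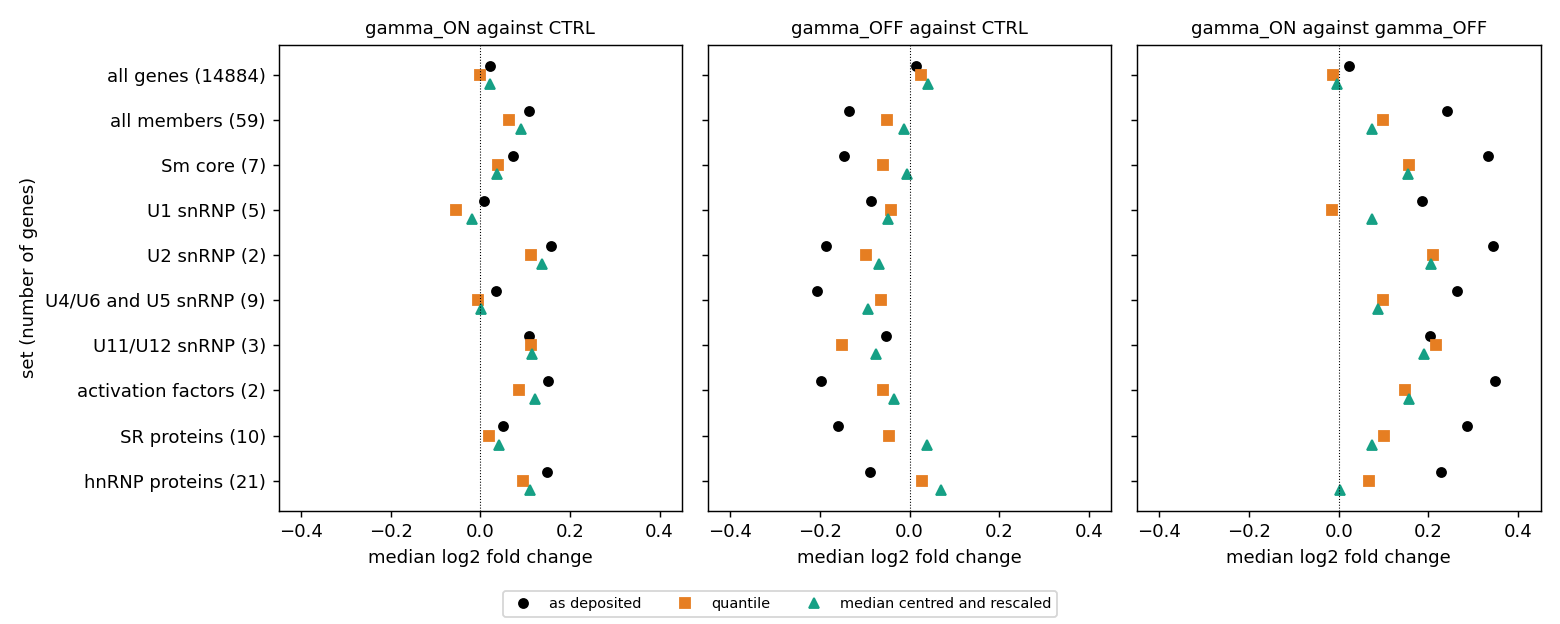
Median log2 fold change (horizontal axis) of all genes, of the 59 members and of each particle or family (vertical axis, number of genes in brackets), 1 panel per comparison, for the values as deposited (circles), after quantile normalization (squares) and after centring and rescaling each array (triangles). In gamma_OFF against CTRL every group median is below 0 as deposited, but the SR median becomes 0.04 and the hnRNP median 0.07 after rescaling. Without gamma_OFF replicate 2, which the plot does not show, the Sm core and hnRNP medians are above 0.

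By role, every group median in gamma_OFF against CTRL was below 0 in the deposited values, from -0.05 for U11/U12 to -0.21 for U4/U6 and U5. The hnRNP genes turned to 0.03 after quantile normalization and 0.07 after rescaling, and the SR genes to 0.04 after rescaling. With gamma_OFF replicate 2 left out, the Sm core stood at 0.08, with 5 of 7 genes above 0, and the hnRNP genes at 0.05, with 12 of 21 above 0. The other 6 groups stayed below 0, from -0.03 for U2 to -0.14 for the SR genes. In gamma_ON against CTRL all 8 medians were above 0. The U1 genes turned to -0.05 after quantile normalization and -0.02 after rescaling, and the U4/U6 and U5 genes to -0.01 after quantile normalization. Between gamma_ON and gamma_OFF the deposited medians ran from 0.19 (U1) to 0.35 (activation factors), the U1 median became -0.02 after quantile normalization, and the hnRNP median 0.00 after rescaling. Leaving out gamma_OFF replicate 2, they ran from 0.09 (Sm core) to 0.25 (activation factors). The U2, U11/U12 and activation groups hold only 2, 3 and 2 genes, and their medians kept their sign under both scalings in all 3 comparisons.

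Other genes of splicing that the symbol rule does not take were read from 6 lists with 132 measured genes. In gamma_ON against CTRL limma called 0 of the 132, with a median of 0.12. In gamma_OFF against CTRL it called 9 (6.82%), all lower, against 8.85% of all genes (6.08% lower). Their median was -0.13, against -0.10 over the brighter genes. Between gamma_ON and gamma_OFF it called 10 (7.58%), all higher in gamma_ON, against 5.99% of all genes (3.98% higher), with a median of 0.26 against 0.17 over the brighter genes. Not all of these calls held without gamma_OFF replicate 2. The medians of both comparisons were then -0.04 and 0.17, against -0.06 and 0.13 over the brighter genes. Of the 37 splicing regulators 7 fell in gamma_OFF (18.9%), and 2, MBNL2 and LUC7L, without its replicate 2 (5.41%). MBNL2, a muscleblind protein that favours differentiated splice forms, read 8.47 and 8.12 in CTRL, 7.90 and 7.91 in gamma_ON and 7.05 and 6.99 in gamma_OFF. Both gamma_OFF arrays lay more than 1 log2 unit under the lower CTRL array. MBNL2 fell by 1.27 (SE 0.14, adjusted p = 0.00372), and the call held under all 18 alternatives, with adjusted p-values from 0.000914 to 0.0266. LUC7L, a relative of yeast U1 proteins, read 9.42 and 9.40 in CTRL, 8.82 and 8.87 in gamma_ON and 8.53 and 8.06 in gamma_OFF. It fell by 1.11 in gamma_OFF (SE 0.16, adjusted p = 0.00786; 0.0512 without CTRL replicate 2 and 0.0237 without gamma_OFF replicate 2). TIA1, which helps U1 bind weak 5′ splice sites, fell by 0.68 (SE 0.15, adjusted p = 0.0289). It passed under 9 of 18 alternatives, and its adjusted p was 0.09 without gamma_OFF replicate 2. MBNL1, RBM5, TIAL1 and LUC7L3 fell by 0.65, 0.58, 0.45 and 0.43 (adjusted p = 0.0182, 0.0434, 0.0434 and 0.0473). These calls were lost without gamma_OFF replicate 2 (adjusted p = 0.0611, 0.141, 0.107 and 0.112).

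Of 9 measured kinases and partners of SR proteins, 1 fell in gamma_OFF: CLK1, a kinase that phosphorylates SR proteins, read 7.44 and 7.42 in CTRL, 7.31 and 7.12 in gamma_ON and 6.75 and 6.48 in gamma_OFF. The gamma_OFF arrays were the lowest, and CLK1 fell by 0.81 (SE 0.13, adjusted p = 0.0125). Without gamma_OFF replicate 2 the difference was -0.67. The CLK1 call held under 14 of 17 alternatives and was lost without either CTRL array and with all rows tested. Its relative CLK4 was 0.71 higher in gamma_ON than in gamma_OFF (SE 0.13, adjusted p = 0.027), and CLK1 was 0.59 higher (adjusted p = 0.0438). Of 6 measured genes of the minor spliceosome, CENATAC, which acts in splicing of minor introns, fell by 0.71 in gamma_OFF (SE 0.12, adjusted p = 0.012). Without gamma_OFF replicate 2 the difference was -0.67. The CENATAC call held under 16 of 18 alternatives and was lost without either CTRL array. CENATAC was 0.61 higher in gamma_ON than in gamma_OFF (adjusted p = 0.0296). Among 37 splicing regulators MBNL2 (0.89), RBM5 (0.66), MBNL3 (0.59) and MBNL1 (0.53) were higher in gamma_ON than in gamma_OFF. Without gamma_OFF replicate 2 the adjusted p-values of this comparison were 0.0704 for MBNL2, 0.128 for RBM5, 0.119 for MBNL3, 0.126 for MBNL1, 0.0594 for CLK4, 0.13 for CLK1 and 0.0944 for CENATAC, so these calls were lost.

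The 47 other subunits of the spliceosome gave 0 calls against CTRL in either group, and 2 genes, SLU7 (0.75, adjusted p = 0.0385) and PPWD1 (0.57, adjusted p = 0.0391), were higher in gamma_ON than in gamma_OFF. SLU7 acts in the second step of splicing, and PPWD1 is a peptidyl-prolyl isomerase of the complex. In the 19 measured genes of snRNP assembly, ZC3H8 passed between gamma_ON and gamma_OFF (0.60, adjusted p = 0.0456), with 0 calls against CTRL. Without gamma_OFF replicate 2, SLU7, PPWD1 and ZC3H8 had adjusted p-values of 0.121, 0.113 and 0.123. The 14 measured genes of the exon junction complex and mRNA export had 0 calls in any comparison, with the smallest p-values for NXT1 in gamma_ON (0.36, adjusted p = 0.18), MAGOHB in gamma_OFF (-0.54, adjusted p = 0.0669) and THOC5 between both (0.37, adjusted p = 0.0852).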

How the data were processed

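Total RNA of 6 samples, 2 per group, was measured on Affymetrix gene arrays. The authors deposited log2 levels per array row, and RMA and Partek 6.6 were named per the submitters' processing notes. How these steps were ordered and set, and which annotation was used, was not given in the sources used here. Of 53617 rows, 16098 had 1 gene symbol, 0 had several and 37519 had none. All 16098 gene identifiers matched RefSeq (GRCh38.p14). The brightest row by mean was used for the 779 genes with several, which left 14884.

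Limma 3.58.1 in R 4.3.3 (lmFit and eBayes) fitted all 6 arrays together, with 3 residual and 6.05 prior degrees of freedom. P-values are two-sided, adjusted (Benjamini-Hochberg) across the 14884 genes, with calls under 0.05. Scripts were tested on simulated data. The number of arrays limits the precision.

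Groups and replicate numbers came from the sample descriptions. The genes, lists and alternatives were chosen with earlier results of these data known. Named are all called members, the highest and lowest of each role group, members with several rows, 12 central members, and up to 3 called genes of each pathway list or the one with the smallest p. Genes outside this rule that are named (HNRNPL, HNRNPLL, HNRNPAB, SNRNP40, SRSF7, further called genes of the lists, HNRNPM in some comparisons and those of the pattern counts) were chosen after their values were seen. Alternatives varied the spread model, arrays, filter, scaling, rows and threshold.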

Additional observations from a re-analysis of the deposited data

How the results depend on the processing

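No member that was called reversed its sign under any of the alternatives run. The median over the members in gamma_OFF against CTRL was -0.0114 after rescaling and -0.29 to -0.0571 with 1 array left out, the former without gamma_OFF replicate 1 and the latter without gamma_OFF replicate 2. In gamma_ON against CTRL it was 0.06 to 0.15 with 1 array left out. Between gamma_ON and gamma_OFF it was 0.10 after quantile normalization, 0.0752 after rescaling and 0.18 to 0.36 with 1 array left out.

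Counts of called members shifted readily, as did those over all genes, and the cause was not tested. The brackets after gamma_OFF against CTRL and after the F test hold the main count of called members. Over all genes these main counts were 1317 and 1238. All other brackets hold the number called among the 14884 genes, or among 7442 without dim genes. For gamma_OFF against CTRL (3), the count was 1 with array weights, 1 with only both groups fitted, 1 after quantile normalization, 0 with all rows tested, 7 at an adjusted p under 0.1 and 0 to 16 with 1 array left out, 0 without gamma_OFF replicate 2. For gamma_ON against CTRL it was 0 (230), with 3 members at an unadjusted p under 0.05. Limma gave 1 with a trend (386), 2 with array weights (803) and 1 with only both groups fitted (487). It gave 1 without dim genes (311), 1 after quantile normalization (179) and 1 at 0.1 (508). Between gamma_ON and gamma_OFF it gave 0 (892), with 22 members at an unadjusted p under 0.05. The count was 2 with a trend (1628), 1 with only both groups fitted (275), 5 without dim genes (1495) and 11 at 0.1 (3121). The F test (3) gave 1 after centring, 1 after rescaling, 0 with all rows tested, 7 at 0.1 and 0 to 20 with 1 array left out.

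The labels state no pairing by replicate number, and replicate differences correlated at -0.10 to 0.09 between groups over genes. With a replicate block the called members were 3 in gamma_OFF, 0 in both other comparisons and 3 by the F test. Over 114 pairs of a named gene and a comparison, values kept direction and side of the threshold in 1767 cases, lost the call in 127, gained it in 64 and changed sign while uncalled in 76.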
